A study of Mus musculus with 9 samples.

Results

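The release machinery described here is the set of proteins that docks and fuses vesicles with membranes: synaptotagmins, complexins, SNARE proteins, their syntaxin binding partners, synapsins and the SV2 vesicle proteins. The members were chosen by symbol, as every probe set whose single symbol in the array annotation was Syt, Stx or Vamp with its number, Cplx, Syn, Sv2, Stxbp, Snap23, Snap25, Snap29 or Snap47. The rule took 132 of 45101 probe sets, which stand for 56 of 18193 genes named on the array. They were read in mouse adult olfactory bulb stem cells (aOBSCs) grown for 7 days as neurospheres in DMEM/F12-N2 medium with both mitogens, FGF-2 and EGF, at a dose of 20 ng/ml. The mitogens were added daily in the Ctr condition, every 2 days in C2 and every 4 days in C4, and each condition had 3 arrays, 9 in all. Per the paper's methods all cells received them daily up to passage 3. The cultures were then split into the conditions, which were kept for 2 more passages before the assays. By the day of collection C2 cells had been without a new addition for 1 day and C4 cells for 3 days, and the medium was not changed. The cultures came from CD1 mice of 4 to 15 months or adult C57Bl/6 mice, and the legend of the array experiment names mice of 7 and 15 months. The strain and age behind each array are not given in the sources used here. The labels call the arrays biological replicates without saying whether mice, cultures or passages separate them, so p-values measure the spread between these arrays.

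In a neuron, vesicle fusion at the synapse needs a SNARE protein on the vesicle (Vamp2) and, on the plasma membrane, Snap25 and a syntaxin such as Stx1a, which zip into 1 bundle. Complexins clamp that assembly and then help it, and Syt1 senses the calcium that triggers fusion. Every cell uses relatives of the same proteins (Vamp3, Snap23, Stx4 and Stxbp3 at the cell surface, other syntaxins on endosomes and the Golgi) to move cargo between its compartments. The members were therefore read in 3 classes set by textbook use: 23 neuronal genes (47 probe sets), 21 ubiquitous genes (58 probe sets) and 12 other genes of restricted or unsure use (27 probe sets).

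Sequence is shown first for members on which the results turn, from the RefSeq windows of GRCm38.p6 that run from 250 bases before a transcript start to 50 after it. Windows were found for 44 of the 56 genes. Their median GC content was 64.5% in 22 windows of neuronal members, 60.3% in 24 windows of ubiquitous members and 64.3% in 13 windows of the others, beside 52.7% over all 32851 windows. In either comparison with Ctr, Cplx2 and Syt16 were the only members with a log2 difference of 1 or more (beside 0.0844% of all probe sets in C2 and 0.693% in C4), and the 250 bases before 1 annotated transcript start of each are given with every CG pair in capitals, at chr13:54302306-54302555 (plus strand) and chr12:73997527-73997776 (plus strand). Each gene also has a start further upstream, so the Cplx2 stretch lies inside the span of its gene and the Syt16 stretch lies partly inside.
Cplx2: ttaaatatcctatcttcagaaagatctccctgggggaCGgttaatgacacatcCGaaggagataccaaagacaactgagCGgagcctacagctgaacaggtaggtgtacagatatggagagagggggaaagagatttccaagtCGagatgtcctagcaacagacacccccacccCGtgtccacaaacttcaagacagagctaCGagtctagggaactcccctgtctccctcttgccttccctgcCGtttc
Syt16: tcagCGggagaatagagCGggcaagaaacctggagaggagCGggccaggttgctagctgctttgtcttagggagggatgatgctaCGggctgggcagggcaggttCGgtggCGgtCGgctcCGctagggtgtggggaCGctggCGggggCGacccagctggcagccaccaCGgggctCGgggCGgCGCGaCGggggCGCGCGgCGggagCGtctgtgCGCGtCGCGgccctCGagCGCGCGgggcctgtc
The Cplx2 stretch held 7 CG pairs and 50.8% GC, and the Syt16 stretch held 30 CG pairs and 72.8% GC. The median over all windows was 6 CG pairs in the same stretch.

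Many genes of synaptic proteins carry RE1, the element through which the repressor REST holds neuronal genes down in other cells, so the windows were searched on both strands for the first part of its core (TTCAGCACC). It was in 0.371% of the 32851 windows and in 1 of the 44 member genes, Syn1. For this and the next motifs the background counts windows and the members are counted by gene. Some member genes have several windows, so the 2 counts are not on the same footing. The cyclic AMP response element (TGACGTCA), in 1.79% of windows, was in Syn1 and Stxbp3. The AP-1 site (TGANTCA), in 7.81% of windows, was in Syt2, Syt6 and Syt8, and an ETS site (CCGGAAG), in 8.86% of windows, was in Stxbp2 and Syt11. Motifs in the windows of Syn1, a synaptic member without signal here, and of Syt11, a member with strong signal, are shown in capitals with their surroundings, all read along the gene. For Syn1 on the minus strand the stretch shown around the RE1 part spans chrX:20921127-20921165, and that around the cyclic AMP response element spans chrX:20921055-20921092. For Syt11, also on the minus strand, the stretch shown around the ETS letters spans chr3:88772603-88772639, inside the span of the gene. The ETS letters read in reverse complement.
Syn1 RE1 first part: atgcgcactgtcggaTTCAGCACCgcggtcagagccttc
Syn1 cyclic AMP response element: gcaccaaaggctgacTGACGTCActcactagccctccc
Syt11 ETS: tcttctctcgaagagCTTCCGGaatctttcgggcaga
A match is a description of these letters and not a site shown to be used.

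The values are the authors' GCRMA values on the log2 scale. The lowest value was 2.27 on every array, held by 34.8% to 35.8% of probe sets. A probe set was called detected where at least 3 arrays exceeded 4, and genes with signal are those with a detected probe set. Some member probe sets repeated a value above 4, such as 4.64 on 7 arrays for Snap29 (1423354_at) and 5.09 on 6 for Stx17 (1427924_at). Whether such repeated values are signal was not tested, so the detected counts may include probe sets without it. Of the 132 member probe sets 70 were detected (53.0%), beside 40.8% of all 45037 probe sets that are no array controls. The classes differed in this share: 15 of 47 neuronal probe sets (31.9%), 44 of 58 ubiquitous probe sets (75.9%) and 11 of 27 others (40.7%) were detected. By gene, 7 of 23 neuronal, 18 of 21 ubiquitous and 5 of 12 other members had a detected probe set. For the other 26 genes every array lay under 4, with 3.54 the highest value of any undetected member probe set. Because a level depends on the probes, levels are compared between conditions within a probe set and never between genes.

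**Figure D1:**
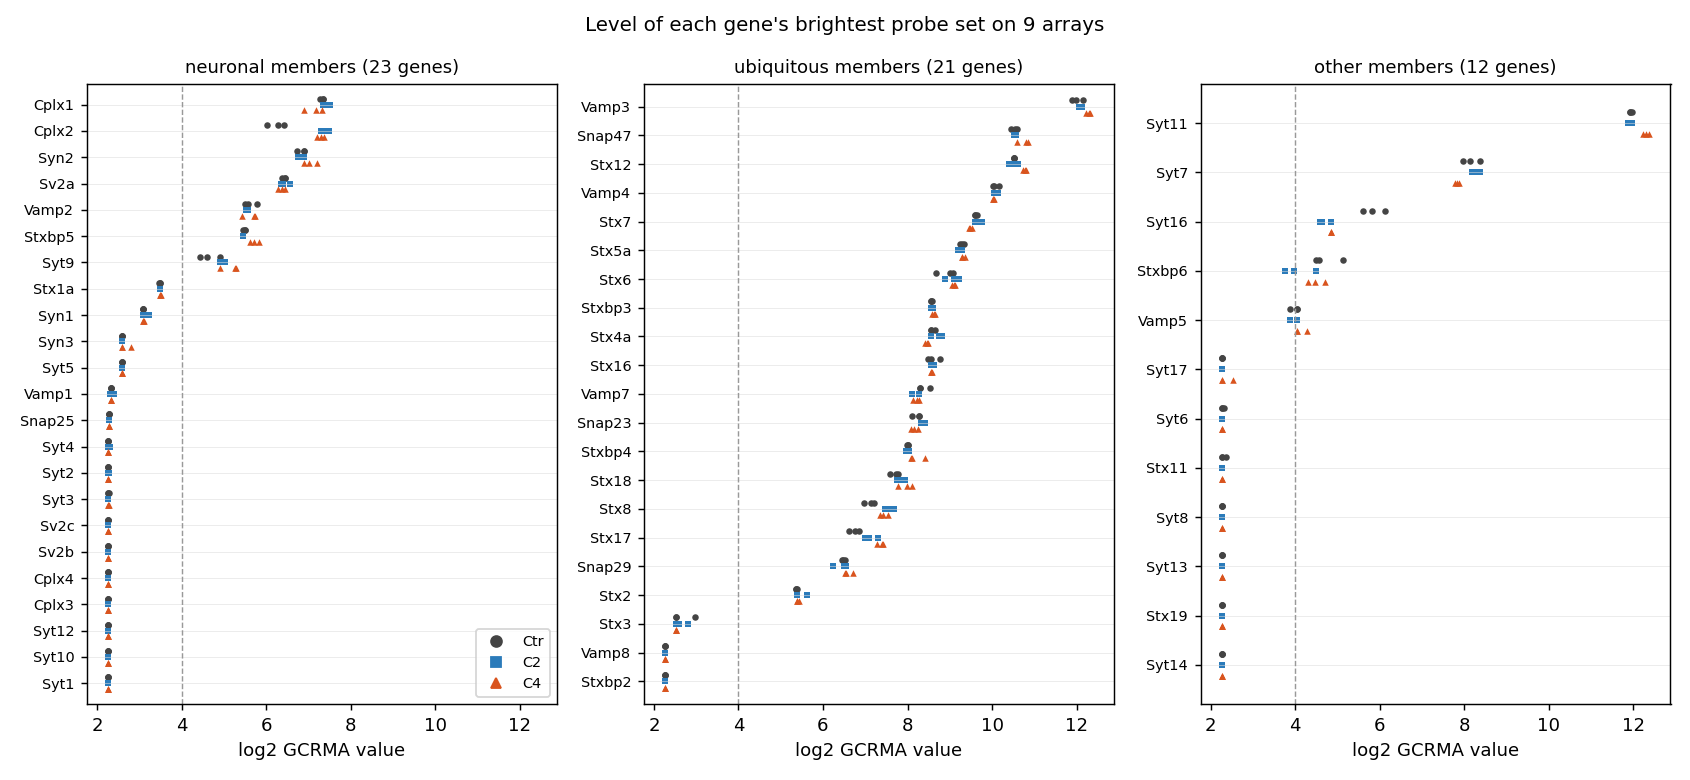
Level (log2 GCRMA value) of the probe set of highest mean of each of the 56 member genes, with 3 arrays per condition as circles (Ctr), squares (C2) and triangles (C4), and a dashed line at 4. Most neuronal members sit at the left edge in all 3 conditions, while 18 of 21 ubiquitous members lie to the right of the line; the order of genes reflects their probes as well as their transcripts.

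Part of the core of fast synaptic release was without signal in RNA, namely Syt1, Snap25, Stx1a and Syn1, while Vamp2, Cplx1 and Cplx2 had signal. Syt1, the calcium sensor of synchronous release, stood at 2.27 on all 9 arrays on each of its 4 probe sets. Snap25 did not exceed 2.30 on either probe set. Stx1a gave 3.49, 3.49 and 3.46 in Ctr, 3.49 on all 3 arrays of C2, and 3.49, 3.49 and 3.50 in C4 on its brighter probe set, which holds the same value on 7 of 9 arrays. Syn1, which tethers synaptic vesicles, lay between 3.08 and 3.22. The synaptotagmins Syt2, Syt3, Syt4, Syt5, Syt10 and Syt12, the retinal complexins Cplx3 and Cplx4, Vamp1, Syn3, Sv2b and Sv2c did not exceed 2.80 on any array. The 7 neuronal genes with signal were Syt9, Cplx1, Cplx2, Sv2a, Syn2, Stxbp5 and Vamp2. Of the synaptic SNARE proteins measured (Vamp1, Vamp2, Stx1a and Snap25), Vamp2 was thus the one detected.

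Markers of neurons showed the same division. Of 13 genes in the marker list of neurons and neuroblasts 3 were detected (Map2, Gap43 and Elavl4), and the defining markers Tubb3, Dcx, Rbfox3 and Stmn2 had condition means of at most 2.40. The list's mean level was 4.09 to 4.19 in Ctr, 4.09 to 4.11 in C2 and 4.07 to 4.10 in C4. Of 7 markers of neural stem and progenitor cells 6 were detected, Sox2 and Fabp7 among them and Prom1 not, with a mean level of 9.26 to 9.30 in Ctr, 9.30 to 9.36 in C2 and 9.55 to 9.64 in C4. None of the 5 microglia, 4 pericyte and fibroblast, and 3 endothelium markers was detected.

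Called below means an adjusted p under 0.05 in limma, fitted to all 9 arrays with Benjamini-Hochberg adjustment over 45037 probe sets. In C4 against Ctr, 17 of 132 member probe sets were called (12.9%), 16 higher and 1 lower, beside 6.29% of all probe sets. Dim probe sets can hardly be called, and among probe sets with a mean of at least 4 the share was 17 of 70 members beside 15% of all. By gene, read on the probe set of highest mean, 6 of 56 members were called, beside 9.2% of all 18193 genes, a share near the background. Over the whole array higher calls were 3.78% and lower calls 2.51% of all probe sets. With each array centred on its median, 13 members were higher and 3 lower. Over probe sets with a mean of at least 4 the median difference was 0.14 for members and 0.04 for all. It was 0.24 for 15 neuronal, 0.10 for 44 ubiquitous and 0.14 for 11 other probe sets. By gene, read on the probe set of highest mean, the medians were 0.08 for members and 0.05 for all genes. They were 0.20 for 7 neuronal, 0.08 for 18 ubiquitous and -0.23 for 5 other genes. The count of 17 was 9 without C4 replicate 2 and 10 without Ctr replicate 2. Calls over all probe sets went from 2833 to 1953 and 1818 in these fits.

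By class the calls in C4 were 5 of 47 neuronal probe sets (in Cplx2, Syn2 and Stxbp5), 6 of 58 ubiquitous ones (in Vamp3, Vamp4, Stx8, Stx12 and Stx17) and 6 of 27 others (in Syt11 and Syt16). In C2 against Ctr 2 member probe sets were called, Cplx2 higher and Syt16 lower, beside 1.7% of all probe sets. At an unadjusted p under 0.05 in limma, 7 of 132 were higher and 4 lower, beside 2871 and 1749 of all 45037 probe sets. In C4 against C2 the calls were 11, all higher, beside 5.25% of all probe sets called and 2.86% called higher, and Syn2 alone differed by at least 1, beside 0.673% of all probe sets. Centring gave 10 higher and 3 lower in C4 against C2. The count of 2 in C2 was 7 with dim probe sets left out and 5 with centring. Calls over all probe sets went from 767 to 1825 and 1150 in these fits. The robust prior left 0 calls in C2 and 6 in C4 against C2, beside 45 and 1178 over all probe sets. C2 had 1 call with 2 conditions in the fit, with a replicate block and without Ctr replicate 1, C2 replicate 1 or C2 replicate 3. Calls over all probe sets were then 371, 237, 421, 361 and 323. C4 against C2 had 5 without C2 replicate 2, beside 1485 over all probe sets. The C2 and C4 comparisons share the Ctr arrays, so their values are not independent of each other. In these bulk samples fewer cells of a type and less RNA per cell cannot be told apart.

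**Figure D2:**
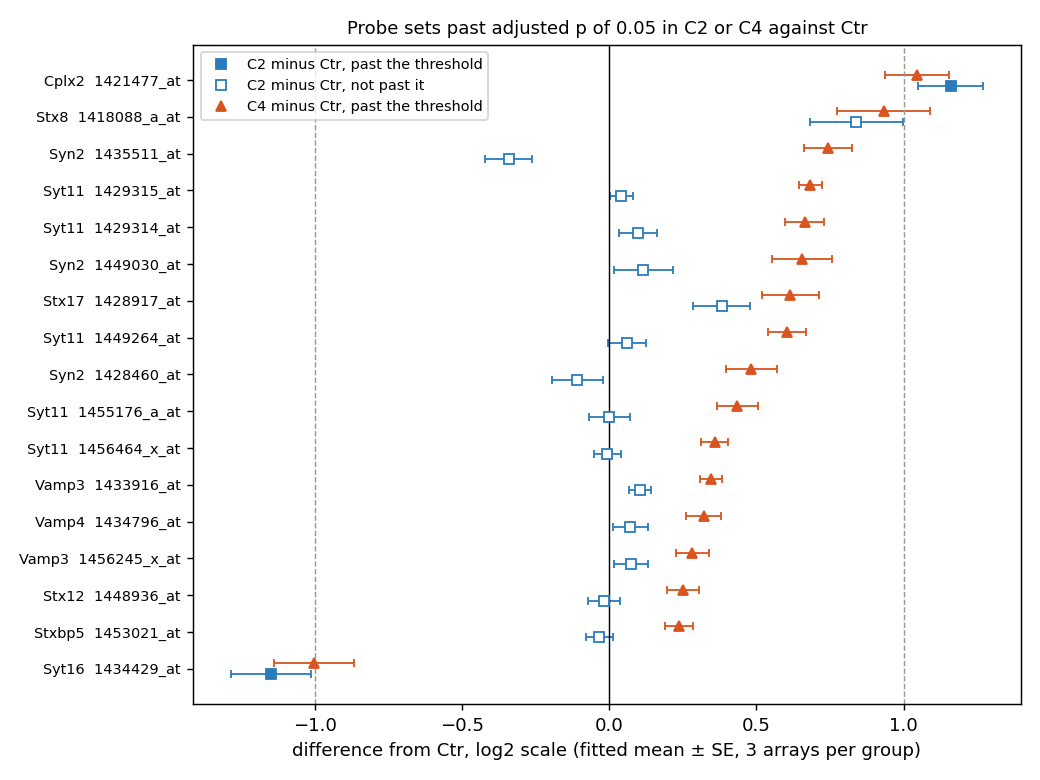
Difference from Ctr on the log2 scale (fitted mean ± SE, 3 arrays per condition) for the 17 member probe sets past an adjusted p of 0.05, in C2 (squares) and C4 (triangles); open symbols are not past it and dashed lines mark a difference of 1. Cplx2 and Syt16 moved alike in both conditions, while the Syt11 and Syn2 probe sets passed in C4 and none of them passed in C2.

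Among the synaptotagmins, Syt11 rose in C4 on every probe set. Syt11 (chr3:88744699-88775159, GRCm38.p6) is a synaptotagmin that does not bind calcium and acts in vesicle recycling and endocytosis. Its brightest probe set (1456464_x_at) read 11.98, 11.92 and 11.92 in Ctr, 11.98, 11.96 and 11.86 in C2, and 12.37, 12.29 and 12.23 in C4. The 3 C4 arrays lay above all others, and Ctr and C2 overlapped. The difference in C4 was 0.36 ± 0.05 (SE; limma adjusted p = 0.00637). The other 4 probe sets rose by 0.43 to 0.68, of which 1429315_at moved most clearly, from 9.07, 8.98 and 9.07 in Ctr and 9.04, 9.05 and 9.15 in C2 to 9.70, 9.70 and 9.76 in C4 (0.68 ± 0.04, limma adjusted p = 0.000363). All 5 were also higher in C4 than in C2, by 0.37 to 0.64, while in C2 against Ctr they lay between -0.01 and 0.10. One of them (1455176_a_at) was no longer called in C4 with Ctr and C4 arrays alone (adjusted p = 0.0574), without C4 replicate 2 (0.0578) or without C4 replicate 3 (0.0537).

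Syt16 went the other way in both conditions. It is an atypical synaptotagmin that lacks calcium binding, at chr12:73997624-74267916, with a single probe set (1434429_at). The values were 5.81, 5.60 and 6.12 in Ctr, 4.59, 4.85 and 4.64 in C2, and 4.84 on all 3 arrays of C4. Every array with fewer additions lay below every Ctr array, and C2 and C4 overlapped. Its level fell by 1.15 ± 0.14 in C2 (limma adjusted p = 0.0157) and by 1.00 ± 0.14 in C4 (adjusted p = 0.0082). The 3 C4 values are identical, and their SD of 0 is not a measure of precision. Whether this repeated value is signal was not tested, so the size of the C4 difference is uncertain. The C2 call was lost with Ctr and C2 arrays alone (adjusted p = 0.082), with the robust prior (0.0808), with a replicate block (0.0802), without Ctr replicate 1 (0.0537), without C2 replicate 1 (0.0593) and without C2 replicate 3 (0.0654).

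The remaining synaptotagmins with signal did not pass. Syt7, which drives slow, asynchronous release and the exocytosis of lysosomes, read 7.97, 8.14 and 8.36 in Ctr, 8.38, 8.25 and 8.19 in C2, and 7.78, 7.82 and 7.86 in C4 on its brightest probe set (-0.34 ± 0.10 in C4, limma adjusted p = 0.134). Its C4 arrays lay below all others, and against C2 the difference was -0.45 (adjusted p = 0.0579). Syt9, a calcium sensor of dense core vesicles, read 4.43 to 4.90 in Ctr, 4.90 to 5.02 in C2 and 4.90 to 5.28 in C4 (0.50, adjusted p = 0.132).

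**Figure D3:**
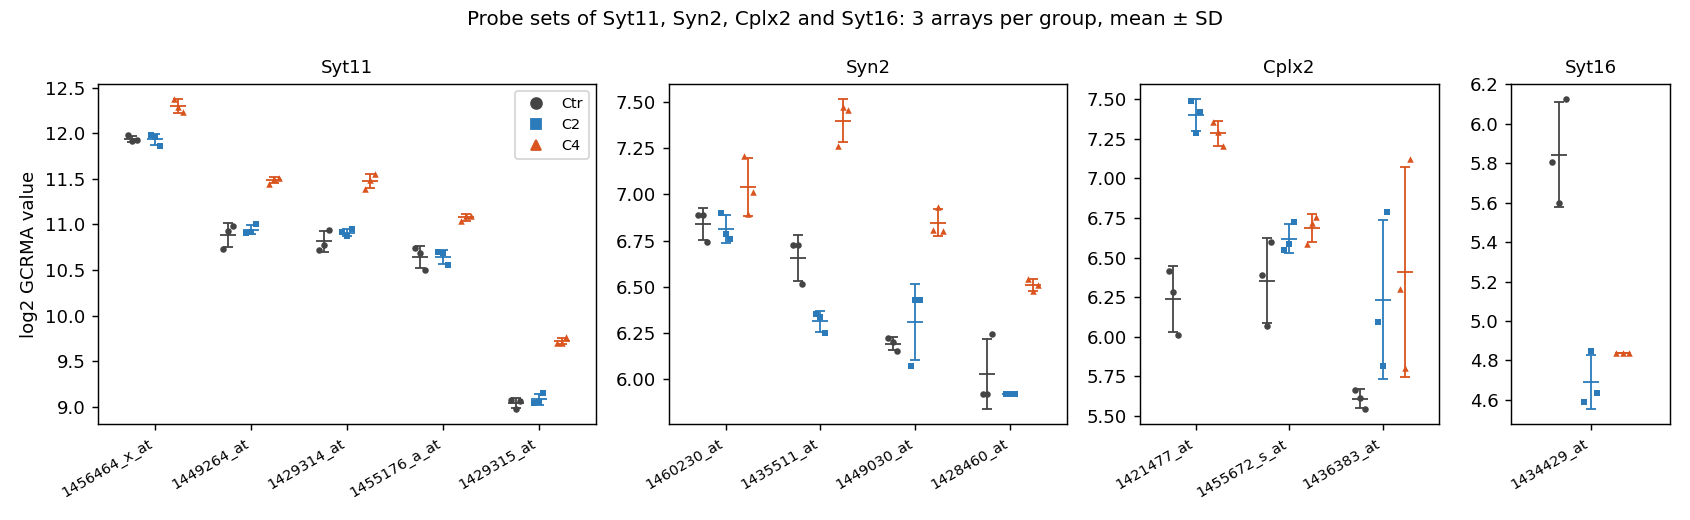
Log2 GCRMA values of the probe sets with a mean above 4 of Syt11, Syn2, Cplx2 and Syt16 on the 3 arrays of each condition, with mean and SD; each panel has its own scale. The 5 Syt11 probe sets rise together in C4, while of 3 Cplx2 probe sets 1 separates Ctr from the others by over 1.

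Of the complexins, Cplx2 rose where FGF-2/EGF were added less often, and Cplx1 gave no call. Both bind the assembled SNARE bundle and, in the brain, are the main complexins of central synapses. The brightest Cplx2 probe set (1421477_at, gene at chr13:54301964-54383923) read 6.42, 6.28 and 6.01 in Ctr, 7.49, 7.29 and 7.42 in C2, and 7.36, 7.29 and 7.20 in C4. No array of C2 or C4 overlapped Ctr, and C2 and C4 overlapped each other. The difference was 1.16 ± 0.11 in C2 (limma adjusted p = 0.0082) and 1.05 ± 0.11 in C4 (adjusted p = 0.00313), and C4 minus C2 was -0.11 (adjusted p = 0.744). The robust prior put C2 at an adjusted p of 0.055.

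The other Cplx2 probe sets gave smaller differences that did not pass. For 1455672_s_at they were 0.27 in C2 and 0.33 in C4, and for 1436383_at 0.62 in C2 and 0.80 in C4, the latter with C4 arrays at 6.30, 5.80 and 7.12. As a mean over the 3 probe sets Cplx2 differed by 0.68 in C2 (limma adjusted p = 0.056) and by 0.73 in C4 (adjusted p = 0.0206). Cplx1 (1448832_a_at) read 7.35, 7.27 and 7.35 in Ctr, 7.45, 7.51 and 7.35 in C2, and 7.31, 7.19 and 6.89 in C4. Its differences of 0.11 in C2 and -0.19 in C4 did not pass, with adjusted p = 0.829 and 0.53.

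Among the vesicle SNAREs, the ubiquitous Vamp3 rose in C4 on 2 of 5 probe sets, and the neuronal Vamp2 gave no call. Vamp2 (1420833_at) read 5.78, 5.50 and 5.58 in Ctr, 5.55, 5.58 and 5.51 in C2, and 5.73, 5.72 and 5.43 in C4, a difference of 0.01 ± 0.10 in C4 (limma adjusted p = 1) whose sign turned under other settings. Vamp3, or cellubrevin, serves recycling endosomes. Its probe set 1433916_at read 10.27, 10.26 and 10.37 in Ctr, 10.41, 10.36 and 10.44 in C2, and 10.63, 10.69 and 10.61 in C4 (0.34 ± 0.04, adjusted p = 0.00343). All C4 arrays lay above the rest, and C4 was also higher than C2 by 0.24 (adjusted p = 0.0143).

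For Vamp3 the brightest probe set (1437708_x_at) differed by 0.27 and did not pass (adjusted p = 0.0682), a second one passed at 0.28 (1456245_x_at, adjusted p = 0.0381), and the mean over all 5 was 0.23 (adjusted p = 0.00482). Vamp4, a SNARE of the trans-Golgi network, was called in C4 on 1 of 3 probe sets (1434796_at, 0.32, adjusted p = 0.0266), while its brightest one differed by -0.04. Vamp7, of late endosomes and lysosomes, differed by -0.16 in C4 (adjusted p = 0.453), Vamp8 stood at 2.27 throughout, and Vamp5 lay between 3.88 and 4.29 on its brighter probe set. The Vamp4 call and that of 1456245_x_at were lost under the robust prior (adjusted p = 0.136 and 0.106). The former was also lost as a mean over 3 probe sets (0.18, adjusted p = 0.285) and without any 1 of the Ctr or C4 arrays, and the latter without any 1 array other than Ctr replicate 1.

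The target SNAREs held the most members, 18 genes and 45 probe sets. Of these probe sets 3 were higher in C4 and none was lower. That is 6.67% of the 45, near the 6.29% of all probe sets. At an unadjusted p under 0.05 in limma 9 were higher and 2 lower, beside 4305 and 2860 of all 45037 probe sets. Stx8, a late endosomal syntaxin at chr11:67966411-68207148, read 5.61, 5.44 and 5.65 in Ctr, 6.20, 6.61 and 6.41 in C2, and 6.60, 6.70 and 6.20 in C4 on probe set 1418088_a_at. C2 and C4 lay above Ctr on every array. The difference was 0.84 in C2 (limma adjusted p = 0.0659) and 0.93 ± 0.16 in C4 (adjusted p = 0.0195). Its brighter probe set (1418089_at) rose from 7.11 to 7.57 in C2 and 7.43 in C4 as means and did not pass in either (adjusted p = 0.0566 and 0.0849). As a mean over its 3 probe sets Stx8 was called in both, at 0.44 in C2 (adjusted p = 0.0251) and 0.41 in C4 (adjusted p = 0.0129). On 1418088_a_at the C4 call was lost without any 1 of the Ctr arrays, without C4 replicate 1 and without C4 replicate 2.

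Stx17, the syntaxin of autophagosomes, read 6.62, 6.86 and 6.76 in Ctr, 7.09, 6.996 and 7.30 in C2, and 7.27, 7.41 and 7.40 in C4 (1428917_at). Both conditions lay above Ctr, and C4 passed (0.62 ± 0.10, limma adjusted p = 0.0146) where C2 did not (0.38, adjusted p = 0.155). Its 3 other probe sets differed by -0.11 to 0.42 in C4 and did not pass. The call was lost as a mean over the 4 probe sets (0.25, adjusted p = 0.0658), without C4 replicate 2 (0.0573) and without C4 replicate 3 (0.0528). Stx12, of recycling endosomes, was higher in C4 by 0.25 (1448936_at, adjusted p = 0.0438), from a range of 10.51 to 10.53 in Ctr to 10.73 to 10.81 in C4, and lost its call as a mean over 2 probe sets (0.16, adjusted p = 0.108), without any 1 array of Ctr or of C4 and without C2 replicate 1. The plasma membrane SNAREs of other cells showed no call against Ctr: Snap23, the relative of Snap25, differed by -0.06 in C4 (adjusted p = 0.796), and Stx4a by -0.13 (adjusted p = 0.444). As a mean over its 3 probe sets Snap23 was called in C4 against C2 (-0.14, adjusted p = 0.0377).

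Stx4a read 8.56, 8.56 and 8.64 in Ctr, 8.56, 8.74 and 8.83 in C2, and 8.42, 8.49 and 8.46 in C4, so its C4 arrays lay below the others without passing. Snap23 read 8.11, 8.27 and 8.28 in Ctr, 8.40, 8.31 and 8.31 in C2, and 8.07, 8.25 and 8.15 in C4. Snap47, Snap29, Stx2, Stx5a, Stx6, Stx7, Stx16 and Stx18 had signal and no call in any of the 3 comparisons. Stx3, Stx11 and Stx19 had no signal.

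Of the syntaxin binding proteins, Stxbp3 (Munc18c, the partner of Stx4) read 8.58, 8.56 and 8.56 in Ctr, 8.61, 8.57 and 8.58 in C2, and 8.62, 8.65 and 8.59 in C4 (0.06 ± 0.02 in C4, limma adjusted p = 0.197). As a mean over its 2 probe sets it differed by -0.13 (adjusted p = 0.307). Stxbp5, or tomosyn, competes with Vamp2 for the target SNAREs and so restrains fusion. It read 5.46, 5.49 and 5.49 in Ctr, 5.45, 5.44 and 5.44 in C2, and 5.71, 5.82 and 5.62 in C4 on 1453021_at (0.24 ± 0.05, adjusted p = 0.0348). The 3 C4 arrays lay above the rest, but the call ended with the robust prior (adjusted p = 0.358), with each array centred on its median (0.184), with 2 conditions in the fit (0.138) and as a mean over 3 probe sets (0.34), and also without any 1 array other than C4 replicate 2 or 3. Stxbp4 and Stxbp6 had signal without a call, and Stxbp2 stood at 2.27.

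Syn2 was the synapsin with signal, and C4 was higher than Ctr on 3 of its 6 probe sets. Synapsins coat synaptic vesicles and hold them in the reserve pool. Probe set 1435511_at read 6.73, 6.73 and 6.51 in Ctr, 6.35, 6.34 and 6.25 in C2, and 7.26, 7.48 and 7.46 in C4. The 3 conditions did not overlap, with C2 lowest and C4 highest. C4 exceeded Ctr by 0.74 ± 0.08 (limma adjusted p = 0.00355) and C2 by 1.09 (adjusted p = 0.000813), while C2 minus Ctr was -0.34 (adjusted p = 0.127). Probe sets 1449030_at and 1428460_at rose in C4 by 0.65 (adjusted p = 0.0131) and 0.48 (adjusted p = 0.0245). The latter read 5.92 on 5 of the 9 arrays, 2 of Ctr and 3 of C2, and lost its call under the robust prior (adjusted p = 0.0988) and without any 1 array other than Ctr replicate 3. The former was not called without Ctr replicate 2 (adjusted p = 0.0509) or C4 replicate 2 (0.0514).

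The brightest Syn2 probe set (1460230_at) read 6.89, 6.89 and 6.74 in Ctr, 6.90, 6.78 and 6.76 in C2, and 7.21, 6.89 and 7.02 in C4, and did not pass (0.20, limma adjusted p = 0.35). The 2 dimmest probe sets had no signal, and as a mean over all 6 Syn2 rose by 0.35 in C4 (adjusted p = 6.57e-05). RefSeq places Timp4, a metalloproteinase inhibitor (chr6:115244444-115252205), within the span of Syn2 (chr6:115134902-115282626), with Timp1 inside Syn1 and Timp3 inside Syn3. Timp4 (1423405_at) read 9.59, 9.68 and 9.67 in Ctr, 10.28, 10.13 and 10.16 in C2, and 9.91, 9.86 and 9.82 in C4, so it was highest in C2, where Syn2 probe set 1435511_at was lowest. Whether signal of one reaches the probes of the other was not tested. Sv2a, a vesicle glycoprotein that is the target of levetiracetam, read 6.44, 6.38 and 6.44 in Ctr, 6.41, 6.36 and 6.56 in C2, and 6.29, 6.44 and 6.38 in C4, with no call (-0.05, adjusted p = 0.853).

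Markers of glia and of stem cells moved in the same comparison in which Syt11 and Syn2 rose. Of the 7 stem and progenitor markers 3 were higher in C4 (Egfr, Pax6 and Fabp7) and none was lower. Of 6 astrocyte markers 3 were higher in C4 (S100b, Aldh1l1 and Aqp4), and the list's mean level was 7.50 to 7.57 in Ctr, 7.47 to 7.64 in C2 and 8.09 to 8.27 in C4. Of 6 oligodendrocyte lineage markers 3 were higher in C4 (Pdgfra, Cspg4 and Gpr17), with a mean level of 3.85 to 3.91 in Ctr, 3.41 to 3.59 in C2 and 4.46 to 4.70 in C4, and Mbp, Mog and Sox10 were not detected. For neurons the only marker called in C4 was Gap43, lower by 0.79. Over all genes 9.2% were called in C4, and 1633 of 9347 with a mean of at least 4. With such a mean the calls were 3 of 6 stem and progenitor, 3 of 5 astrocyte and 3 of 3 oligodendrocyte lineage markers. In C2 1 astrocyte and 1 oligodendrocyte lineage marker were called lower and none higher, beside 2.52% of all genes called. The part of any of these cell types in the Syt11 and Syn2 values was not tested.

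The wider release pathway was read on 77 further genes in 6 lists. In C4 8 of them were called (10.4%) on the probe set of highest mean, 4 higher and 4 lower, beside 9.2% of all genes. In C2 3 were called, beside 2.52%, and in C4 against C2 8, beside 7.78%. The 3 calls in C2 (Amph, Sh3gl2 and Cadps) were all lost with the robust prior, with 2 conditions in the fit, with a replicate block and without C2 replicate 1. The 6 transporters that load transmitter into vesicles, such as the vesicular glutamate transporters, were all without signal. Of 30 genes of priming and the active zone 8 were detected (among them Rab3a, Unc13b and Cadps), and limma called none in C4 (2 higher and 1 lower at an unadjusted p under 0.05). All 4 genes of SNARE disassembly (Nsf, Napa, Napb and Napg), which every cell needs, were detected, and limma called none in C4 (1 higher and 0 lower at an unadjusted p under 0.05). Over all 18193 genes 2421 were higher and 1523 lower in C4 at that unadjusted p.

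Endocytosis was the list with the largest share detected after SNARE disassembly, 12 of 13 genes, and had 3 higher and 2 lower calls in C4, which is 38.5% of them beside 9.2% of all genes. Dim genes can hardly be called, and among genes with a mean of at least 4 the calls were 5 of 12, beside 1633 of 9347. By probe set 7 of 50 were called (14%), beside 6.29% of all. With a mean of at least 4 this was 7 of 26, beside 15% of all. Amph, which senses curved membrane at the neck of endocytic pits, read 9.02, 9.05 and 9.06 in Ctr, 8.84, 8.88 and 8.93 in C2, and 9.50, 9.49 and 9.51 in C4. It was thus lower in C2 (-0.16, limma adjusted p = 0.0284) and higher in C4 (0.45, adjusted p = 0.000234), with no overlap between conditions. The endophilin Sh3gl2 read 8.39, 8.24 and 8.38 in Ctr, 8.68, 8.73 and 8.69 in C2, and 9.04, 9.11 and 9.12 in C4, higher by 0.36 in C2 (adjusted p = 0.0173) and 0.75 in C4 (adjusted p = 0.000363). Another endophilin, Sh3gl3, rose by 0.80 in C4 (adjusted p = 0.047), and the phosphatase Synj2 and the scaffold Itsn2 differed by -0.43 (adjusted p = 0.0147) and -0.23 (adjusted p = 0.0072).

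Of 15 other vesicle membrane proteins 8 were detected. Scamp5 read 6.78, 6.84 and 6.94 in Ctr, 6.84, 6.99 and 6.99 in C2, and 7.68, 7.68 and 7.76 in C4, higher by 0.85 in C4 (limma adjusted p = 0.000662). Sypl, the relative of synaptophysin outside neurons, fell by 0.40 (adjusted p = 0.00626), from 9.30 to 9.34 in Ctr to 8.83 to 9.04 in C4. Of 9 presynaptic calcium channel genes 2 were detected, and Cacna2d1, an accessory subunit, fell by 0.44 in C4 (adjusted p = 0.0128). Cadps, which primes dense core vesicles, was higher than Ctr in C2 and did not pass in C4. It read 5.93, 5.98 and 5.71 in Ctr, 6.79, 6.56 and 6.71 in C2, and 6.02, 6.19 and 6.30 in C4 (0.82 in C2, adjusted p = 0.0207, and 0.30 in C4, adjusted p = 0.215). C4 was lower than C2 by 0.52 for Cadps (adjusted p = 0.0415).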

How the data were processed

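RNA of aOBSC neurospheres was measured on 9 Affymetrix Mouse Genome arrays. Per the labels, the authors normalised the arrays with GCRMA (version not given in the sources used here), which corrects background by probe sequence, and deposited log2 values, which were used without further scaling. Control probe sets (64) were left out and 45037 tested without a filter. The number of arrays limits the precision. Symbols and Entrez numbers came from the platform annotation, in which 34945 probe sets have 1 symbol, 932 several and 9160 none, and all 132 member probe sets matched RefSeq (GRCm38.p6) by Entrez number.

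Conditions were compared with limma 3.58.1 in R 4.3.3 (1 mean per condition, trended prior, 6 residual and 0.574 prior degrees of freedom), with Benjamini-Hochberg adjustment. Where 1 probe set had to stand for a gene, the one with the highest mean was taken. Named genes are members with a call in any comparison, the synaptic core and its ubiquitous counterparts, and called pathway genes (up to 12 in C4 and 4 in C2). Syt7, Syt9, Timp4, marker genes and other members named without a call lie outside this rule and were chosen after their values were seen. The members and lists were chosen with earlier results of these data known. The procedure was tested on simulated data. Alternatives were a dim filter, other priors, 2 conditions in the fit, a replicate block, median centring, no cross-hybridising probe sets, means over probe sets and leaving out each array. Same-numbered arrays of different conditions did not deviate together (correlations of -0.04 to 0.13 over 9 pairs), so the numbers were not taken to pair arrays.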

Additional observations from a re-analysis of the deposited data

How the results depend on the processing

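Of 30 calls on member probe sets over the 3 comparisons, 13 held under every alternative run (4 Syt11 probe sets in C4 against Ctr and against C2, Syn2 1435511_at in both, and Cplx2 1421477_at, Syt16 and Vamp3 1433916_at in C4 against Ctr), 17 were lost under at least 1, and 0 reversed. Counts of called members moved from 17 in C4, 2 in C2 and 11 in C4 against C2 to 25, 7 and 17 with dim probe sets left out, 12, 0 and 6 with the robust prior, 12, 1 and 9 with the arrays of 2 conditions in the fit, and 16, 5 and 13 with arrays centred on their medians. Calls over all probe sets tested moved as well. From 2833, 767 and 2363 they became 4697, 1825 and 3908 with dim probe sets left out and 1386, 45 and 1178 with the robust prior. They became 1618, 371 and 1404 with 2 conditions in the fit, and 3777, 1150 and 3199 with centring. Centring, which shifted all differences by -0.05 in C4, -0.03 in C2 and -0.02 in C4 against C2, gave 13 higher and 3 lower members in C4 in place of 16 and 1, and 10 and 3 in C4 against C2 in place of 11 and 0. A replicate block from the label numbers gave counts of 13, 1 and 7, beside 1996, 237 and 1634 over all probe sets. Whether the numbers pair the arrays is not known. Leaving out 1 array gave 9 to 14 in C4 (9 without C4 replicate 2, 10 without Ctr replicate 2), 1 to 3 in C2 (1 without Ctr replicate 1, C2 replicate 1 or C2 replicate 3) and 5 to 12 in C4 against C2 (5 without C2 replicate 2). Over all probe sets it gave 1818 to 2585 calls in C4, 323 to 584 in C2 and 1485 to 2091 in C4 against C2. Pathway genes called moved from 3 in C2 to 5 without dim probe sets and to 0 with the robust prior, with 2 conditions in the fit and with the block, and to 0 to 2 without 1 array (0 without C2 replicate 1, and 1 without Ctr replicate 1, Ctr replicate 2, C2 replicate 2 or C2 replicate 3). They moved from 8 in C4 to 4 with the robust prior and 6 to 10 without 1 array, and from 8 in C4 against C2 to 4 with the robust prior, 5 with the block and 5 to 8 without 1 array (5 without C2 replicate 3). At a difference of at least 0.5 in place of 1, member probe sets were 5 in place of 2 in C2 and 10 in place of 2 in C4. In C4 against C2 they were 7 in place of 1. Some of these are of the same gene, such as Syt11. Over all 45037 probe sets 342 were higher and 259 lower by at least 0.5 in C2, and 1155 and 821 in C4. In C4 against C2 these were 973 and 728. Of the member probe sets 64 in place of 70 were detected at a value over 5. The differences of 2 uncalled genes changed sign in C4, Stxbp3 from 0.06 to -0.13 as a mean over probe sets, and Vamp2 from 0.01 to -0.041 with centring and to between -0.052 and 0.11 without 1 array. The cause of these changes was not tested. Weak signal limits what can be said of the 26 genes under 4, for which no change was detectable.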
